A study of Homo sapiens with 6 samples.

Results

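Ribosomal proteins build the cytosolic ribosome, and their genes were examined here in U251 cells, an established human glioma line. Members were the protein-coding genes whose current symbol is a cytosolic ribosomal protein symbol by a name rule, that is RPL or RPS with a number and at most a short suffix, or RPLP0 to RPLP2. The rule used no measured value and found 83 of the 20330 Ensembl genes listed, 52 of the large subunit and 31 of the small subunit. Among them were 7 paralogs, genes that arose by copying of another member. The name rule leaves out some constituents, such as RPSA, FAU, RPL36AL and RACK1.

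The study set 3 libraries of U251 cells with stable overexpression of XLOC013218, a long noncoding RNA (OE below), against 3 libraries of control U251 cells. Both groups share the cell line and the growth conditions, and no other allele or agent is labelled. The sources used here do not give the vector, what the control cells carry or the number of clones. The replicates are described as independent biological ones, and nothing says that they are separate cultures or clones, so p-values measure only the spread between these libraries, which may be technical. U251 is a cultured line and its levels are not those of brain tissue.

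Each cytosolic ribosome holds 1 copy of most of its proteins, while the acidic P proteins of the stalk are the known exception. The large subunit joins amino acids and leads the new chain out through a tunnel, and the small subunit threads and decodes the mRNA. The mRNAs of ribosomal proteins are among the most abundant in growing cells. Most begin with a C followed by a run of pyrimidines (C or T in the gene), the 5′ terminal oligopyrimidine or 5′ TOP motif. Through it mTOR signalling and the RNA-binding protein LARP1 control their translation together. Free RPL5 and RPL11, bound to the 5S rRNA, can inhibit MDM2 and so stabilise p53 when ribosome assembly fails.

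The starts of the genes show this shared feature. RefSeq promoters on GRCh38.p14 were found for 66 of the 83 members. A C at the annotated start with 4 bases of C or T after it stood in 46 of these 66 genes, 69.7%, against 5.14% of 27305 genes of all kinds. With the run allowed to begin at most 3 bases from the start, 52 of 66 had it, 78.8%, against 16.0% of all genes. Where RefSeq lists several starts, as for RPL10 and RPL26L1, the one with the longest run is shown. Each sequence below runs 5′ to 3′ on the gene's own strand, with 40 bases before the annotated start and the first 15 bases of the transcript, and capitals mark the unbroken C or T run from the start. The first 4 belong to members at the top of the abundance order:
RPL41 (chr12:56116593-56116647, plus strand): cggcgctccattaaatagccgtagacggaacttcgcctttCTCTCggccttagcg
RPL10 (chrX:154398337-154398391, plus strand): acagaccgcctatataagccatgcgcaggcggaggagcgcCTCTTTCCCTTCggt
RPS27 (chr1:153990722-153990776, plus strand): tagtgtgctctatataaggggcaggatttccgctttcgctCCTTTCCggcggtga
RPL39 (chrX:119791616-119791670, minus strand): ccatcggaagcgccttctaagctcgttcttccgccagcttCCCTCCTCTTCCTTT

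The next set holds RPS24, RPL36 and RPLP0, which were among the 10 members with the lowest p between the groups, though none was called. It also holds RPS10, a member of low level whose start has the run all the same:
RPS24 (chr10:78033823-78033877, plus strand): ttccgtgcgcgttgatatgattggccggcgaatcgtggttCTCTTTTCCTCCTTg
RPL36 (chr19:5690255-5690309, plus strand): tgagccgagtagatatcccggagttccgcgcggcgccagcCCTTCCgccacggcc
RPLP0 (chr12:120201097-120201151, minus strand): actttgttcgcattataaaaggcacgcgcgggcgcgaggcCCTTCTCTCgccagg
RPS10 (chr6:34426055-34426109, minus strand): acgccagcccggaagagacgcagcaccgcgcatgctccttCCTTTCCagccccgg

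The last set places paralogs beside a parent gene, since the run, counted with the 3-base allowance, was present in 1 of the 5 paralogs with an entry and in 51 of the 61 other members:
RPL22 (chr1:6199581-6199635, minus strand): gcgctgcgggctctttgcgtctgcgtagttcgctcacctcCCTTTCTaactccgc
RPL22L1 (chr3:170870181-170870235, minus strand): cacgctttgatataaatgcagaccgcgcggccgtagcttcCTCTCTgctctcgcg
RPL26 (chr17:8383179-8383233, minus strand): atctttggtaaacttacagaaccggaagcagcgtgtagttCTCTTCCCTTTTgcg
RPL26L1 (chr5:172958689-172958743, plus strand): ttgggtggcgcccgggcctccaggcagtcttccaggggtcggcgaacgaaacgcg
RPS27L (chr15:63157463-63157517, minus strand): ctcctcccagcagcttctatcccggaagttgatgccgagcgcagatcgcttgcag
RPL7L1 (chr6:42879576-42879630, plus strand): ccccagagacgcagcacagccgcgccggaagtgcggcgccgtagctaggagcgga

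RPL22L1 was the paralog with the run, and RPL26L1, RPS27L and RPL7L1 have no C or T run at the annotated start. In the whole promoter entry, 250 bases before the start and 50 after it, 3 further motifs were searched on both strands. CCGGAAG, the core to which ETS factors bind, stood in 24 of the 66 genes, 36.4%, against 12.2% of all genes. TATAAA, the TATA box core, stood in 10.6% of the members against 14.0% of all genes, and AAGATGGC, the core of the YY1 motif, in 10.6% against 3.52%. A match describes these letters only, and no match says nothing about a factor.

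The members made up a large part of the transcriptome of these cells. Levels are FPKM, fragments per gene corrected for transcript length and library size, as the authors deposited them. The members summed to 87356, 95217 and 86665 FPKM in OE replicates 1 to 3, against 92251, 87765 and 83328 FPKM in control replicates 1 to 3. That was 14.2%, 15.3% and 14.1% of the FPKM of all Ensembl genes in the OE libraries, and 14.9%, 14.3% and 13.9% in the control libraries. The groups overlapped in both quantities, and the library with the largest share was OE replicate 2. In each library, 6 or 7 of the 20 most abundant genes, 50 or 51 of the 100 most abundant and 73 or 74 of the 500 most abundant were members. Of the 79 genes of any kind that averaged 1000 FPKM or more, 38 were members. The 5 highest members took between 16.1% and 16.4% of the members' sum in every library.

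Single members spanned a wide range of levels. The median of the tested members was 957.6 FPKM, against 16.9 FPKM for all genes tested, and 71 of 81 members lay between 300 and 3000 FPKM. RPS2, which lines the mRNA entry of the small subunit, was highest, with 3746, 3926 and 3586 FPKM in OE libraries and 4043, 3814 and 3564 FPKM in control libraries. RPL41, a very short protein between the subunits, was next, with 3647, 3799 and 3635 FPKM in OE libraries and 3698, 3571 and 3303 FPKM in control libraries. These values overlapped between the genes and between the groups, and RPL41 was the higher of them in OE replicate 3, so RPS2 and RPL41 cannot be put in order. RPL10, which joins the large subunit late and sits near the catalytic centre, averaged 2472 ± 165 FPKM in OE libraries and 2340 ± 139 FPKM in control libraries (SD, n = 3 each, as for every mean below). RPS27, a zinc-binding protein of the small subunit, averaged 2397 ± 127 FPKM in OE libraries and 2392 ± 70.3 FPKM in control libraries. RPL8, which lies close to the catalytic centre, averaged 2266 ± 89.5 FPKM in OE libraries and 2245 ± 142 FPKM in control libraries. RPL8 was below both RPL10 and RPS27 in each of the 6 libraries, while RPL10 was above RPS27 in the OE libraries and in control replicate 1 and below it in control replicates 2 and 3.

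At the other end of the order, RPL23A and RPS10 were low for genes whose product every ribosome carries. RPL23A, at the mouth of the exit tunnel where the signal recognition particle docks, had 13.2, 14.6 and 12.2 FPKM in OE libraries, against 15.1, 13.4 and 14.7 FPKM in control libraries. RPS10, a protein of the small subunit's head, had 48.1, 50 and 44.0 FPKM in OE libraries, against 48.5, 47.0 and 44.1 FPKM in control libraries. Both were low in all 6 libraries and the groups overlapped. Ribosomal protein genes have many near-identical processed pseudogenes, and the sources used here do not say how reads that match several places were counted, so the absolute level of any member is uncertain, these above all. The other members under 100 FPKM were the paralogs RPL26L1, RPL7L1, RPS27L and RPL39L. The remaining paralogs RPL3L, a muscle form, with at most 0.29 FPKM, and RPL10L, a testis form listed at 0 in all libraries but OE replicate 2, at 0.08 FPKM, lay under the minimum mean of 1 FPKM and were not tested.

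**Figure D1:**
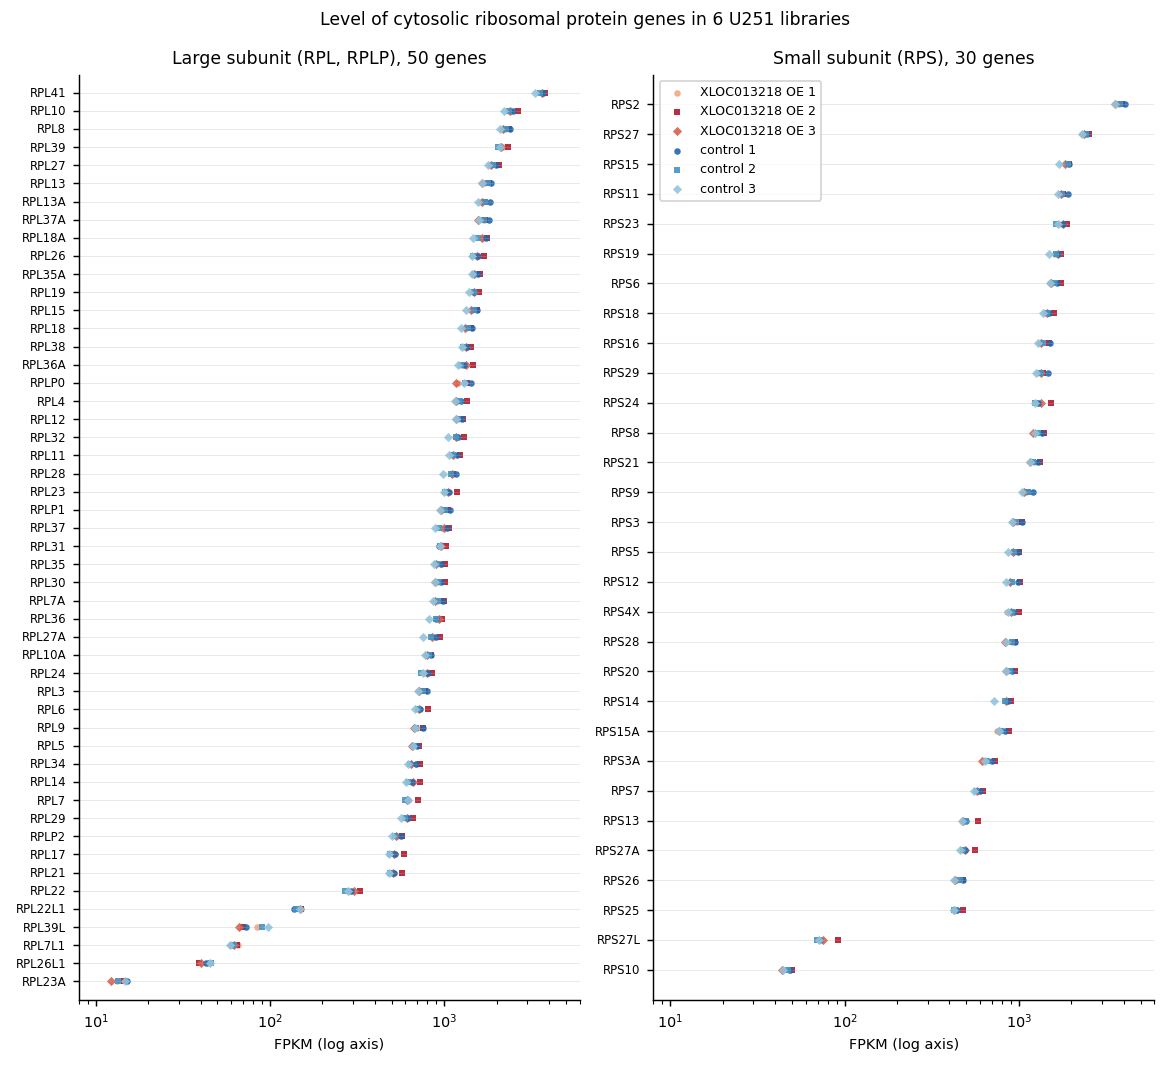
Level of 80 tested members in FPKM on a log axis, by subunit and ordered by mean, with 1 point per library, XLOC013218 OE libraries in red and control libraries in blue. Most genes lie between 300 and 3000 FPKM with the 6 points close together, and RPL23A, RPS10 and the paralogs lie far below.

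Among libraries, most members shifted together by a small amount, and the shifts of OE and control libraries overlapped. A small group part cannot be told apart from this spread between libraries. A library's shift is the median, over the tested members, of log2(FPKM + 1) minus its mean over the 6 libraries. It was -0.02, 0.11 and -0.03 in OE replicates 1 to 3 and 0.05, -0.01 and -0.08 in control replicates 1 to 3, while over all genes tested it stayed within 0.01 of 0 in every library. OE replicate 2 was the highest OE library in 78 of the 81 members, where 32.3% of all genes tested had it highest. It was so in all 31 small subunit members and in 47 of the 50 tested large subunit members, the exceptions being the paralogs RPL39L, RPL7L1 and RPL26L1. Control replicate 1 was the highest control library in 72 of 81 members, against 33% of all genes tested, and control replicate 3 was the lowest in 67 of 81, against 37%. No test was made of these counts, since the members of 1 library share that library.

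The share of genes highest in OE replicate 2 among the OE libraries differed between lists outside the rule. The 5 ribosome constituents left out by the name rule, among them FAU, whose protein is made as a fusion with a ubiquitin-like sequence, were highest in OE replicate 2 in 5 of 5 cases. Of 16 other mRNAs known to carry a 5′ TOP motif, mostly elongation and initiation factors, 12 were highest in OE replicate 2. Of the 76 mitochondrial ribosomal protein genes, which build the separate ribosome of mitochondria, 39 were, and their shift in that library was 0.07. The relative depth of the libraries, estimated from the steps between low FPKM values with control replicate 2 as 1, was 0.78, 0.86 and 0.89 in OE replicates 1 to 3 and 0.90 and 0.78 in control replicates 1 and 3. The part of depth in the shared shift was not tested.

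**Figure D2:**
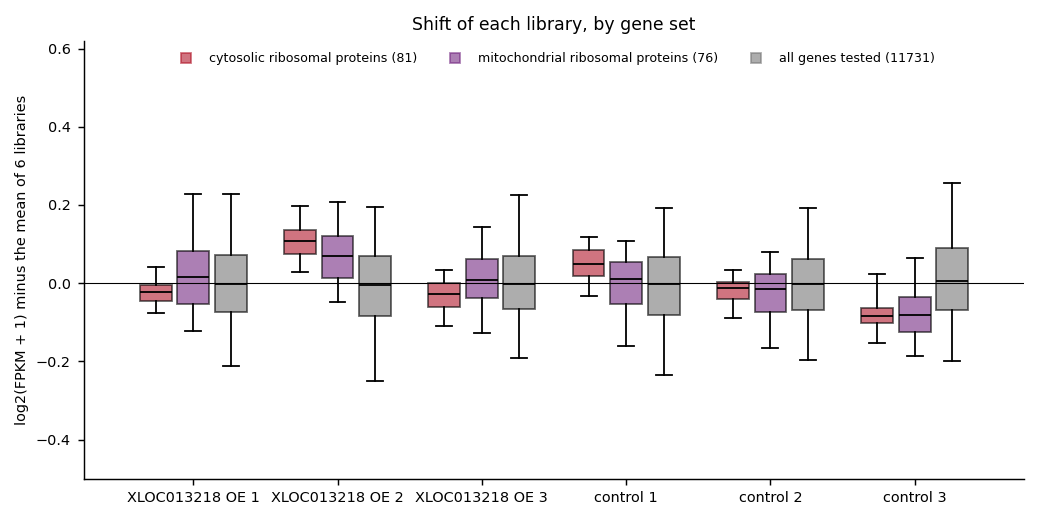
Deviation of each gene's log2(FPKM + 1) from its mean over the 6 libraries, by library, for 81 cytosolic ribosomal proteins (red), 76 mitochondrial ribosomal proteins (purple) and 11731 genes tested (grey). Boxes give the median and quartiles and whiskers the 5th and 95th percentiles; the red boxes are narrow and are centred near 0.11 in OE replicate 2 and near -0.08 in control replicate 3, while the grey ones are centred at 0.

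The deviations of single members also varied with the base composition of the genes. Over 81 members, Spearman's rho between the GC content of the coding sequence and the deviation of a library was 0.24, -0.50 and -0.14 in OE replicates 1 to 3 and 0.56, 0.51 and -0.54 in control replicates 1 to 3. Over 11444 genes tested with a coding sequence the same values were 0.19, -0.22 and -0.25 in OE libraries and 0.28, 0.25 and -0.20 in control libraries. The sign was the same in each library. The points share their libraries, so these values are descriptions with no p. The 27 members with the lowest GC, 40.4% to 47.3%, deviated by 0.13 in OE replicate 2, and the 27 with the highest, 54.0% to 63.0%, by 0.09. In control replicate 1 the low-GC members deviated by 0.01 and the high-GC members by 0.08, and in control replicate 3 by -0.07 and -0.10. Both sets lay on the same side of 0 as the shift of all members in these 3 libraries, the low-GC members only just in control replicate 1. The part of base composition in the shared shift was not tested. High-GC members were also the more abundant, with a rho of 0.40 between GC and mean FPKM over 81 members, against 0.06 over all genes tested.

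**Figure D3:**
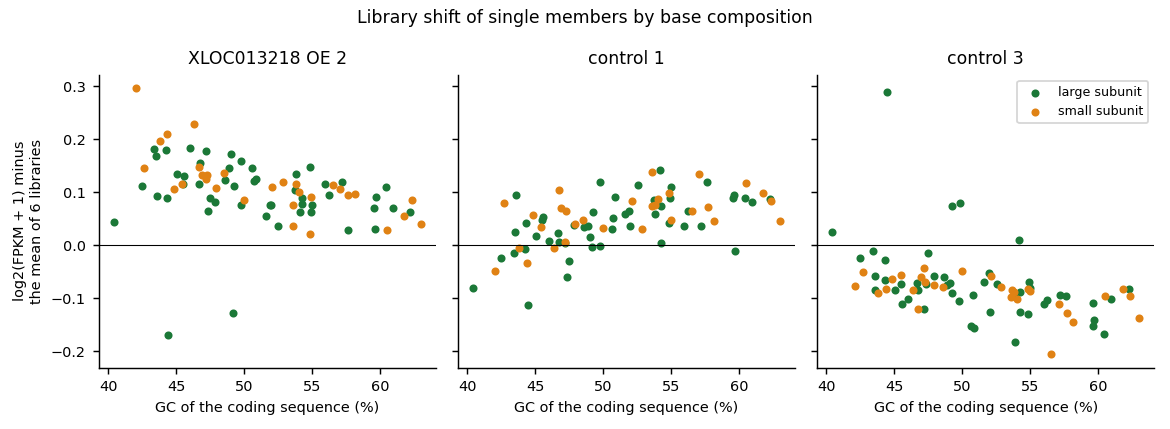
Deviation of 80 tested members in XLOC013218 OE replicate 2, control replicate 1 and control replicate 3 (log2 scale, y axis) against the GC content of its coding sequence in percent (x axis), large subunit in green and small subunit in orange. The points fall with GC in OE replicate 2 (rho -0.50) and control replicate 3 (rho -0.54) and climb with GC in control replicate 1 (rho 0.56), and most lie above 0 in OE replicate 2 and below 0 in control replicate 3.

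The comparison of OE with control cells asked whether XLOC013218 overexpression changes the ribosomal protein mRNAs. No member passed an adjusted p of 0.05: 0 of 81 were called by limma, against 0.52% of the 11731 genes tested (0.315% higher and 0.205% lower in OE cells). At an unadjusted p under 0.05 it was also 0 of 81, against 12.7% of all genes tested. The groups did not overlap in 4 members, all higher in OE cells, RPL39, RPS24, RPL36 and RPL22L1, against 18.9% of all genes tested. Of all genes tested, 8.81% were higher without overlap and 10.1% lower, where 0 members were lower. The log2 fold change, OE minus control on the log2(FPKM + 1) scale, was positive in 56 members and negative in 25, where 49.7% of all genes tested were positive. Its median was 0.04 over the members, 0.05 in the large and 0.02 in the small subunit, against -0.001 over all genes tested. In these bulk libraries fewer cells of a type and less RNA per cell cannot be told apart.

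The intervals show what size of difference these 6 libraries leave possible. The 95% interval of the log2 fold change lay within 0.3 of 0 on either side in 78 of 81 members. The median standard error was 0.061 for members and 0.085 for all genes tested. The excess of positive signs depended on single libraries. The members' median was -0.01 without OE replicate 2, the highest OE library in nearly all members. It was -0.01 without control replicate 3, the lowest control library in most members. Under quantile normalization it was -0.02. The summed level averaged 89746 ± 4750 FPKM in OE libraries and 87781 ± 4461 FPKM in control libraries, a difference of 1965 FPKM, less than the spread within either group.

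**Figure D4:**
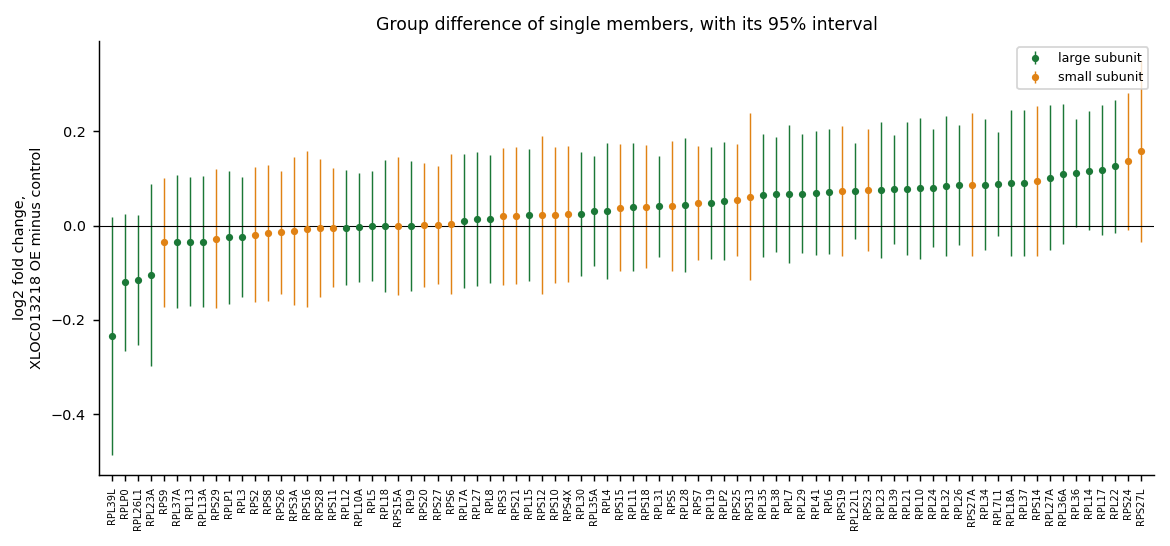
Log2 fold change of 80 tested members, XLOC013218 OE minus control (y axis), ordered from the lowest to the highest, with bars for the 95% interval from limma, large subunit in green and small subunit in orange. All 80 intervals stay within 0.5 of 0 on either side and include 0.

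The 10 members with the lowest p are described next, with each adjusted p from limma over all genes tested. RPL36, a large subunit protein, had 930, 967 and 932 FPKM in OE libraries, against 901, 898 and 822 FPKM in control libraries. The groups did not overlap, and the log2 fold change was 0.11 ± 0.05 (SE) with an adjusted p of 0.403, the lowest of any member. RPS24, a small subunit protein mutated in Diamond-Blackfan anaemia, had 1295, 1524 and 1337 FPKM in OE libraries, against 1289, 1240 and 1245 FPKM in control libraries. OE replicate 1 stood just above the highest control library, and the log2 fold change was 0.14 ± 0.06 (SE, adjusted p = 0.424 by limma). RPL14, RPL22 and RPL17 showed like values. RPL14 averaged 682 ± 42.9 FPKM in OE libraries and 628 ± 22.9 FPKM in control libraries, with a log2 fold change of 0.12. RPL22, which also binds viral and cellular RNAs outside the ribosome, averaged 306 ± 24.5 FPKM in OE libraries and 280 ± 10.8 FPKM in control libraries, with a log2 fold change of 0.13. RPL17, at the exit tunnel, averaged 540 ± 41.5 FPKM in OE libraries and 497 ± 20.8 FPKM in control libraries, with a log2 fold change of 0.12. In these 3 genes the groups overlapped, since control replicate 1 was above OE replicate 1, and the adjusted p lay between 0.432 and 0.477 by limma.

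RPLP0, which anchors the stalk, was 1 of 3 members with a negative log2 fold change in this group of 10. It had 1196, 1344 and 1170 FPKM in OE libraries, against 1419, 1312 and 1296 FPKM in control libraries. OE replicate 2 stood above control replicates 2 and 3, so the groups overlapped, and the log2 fold change was -0.12 ± 0.06 (SE, adjusted p = 0.492 by limma). Its stalk partners RPLP1 and RPLP2, the acidic proteins that recruit elongation factors, did not follow it in size. RPLP1 averaged 993 ± 54.5 FPKM in OE libraries and 1011 ± 67.3 FPKM in control libraries, and RPLP2 549 ± 23.0 FPKM in OE libraries and 530 ± 31.5 FPKM in control libraries. RPL12, at the base of the stalk, averaged 1212 ± 59.4 FPKM in OE libraries and 1215 ± 49.6 FPKM in control libraries. Of the 4 stalk genes 0 were called, with a median log2 fold change of -0.01 against -0.001 over all genes tested.

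The other roles gave the same picture. RPL5 and RPL11, which carry the 5S rRNA, averaged 675 ± 37.1 and 1155 ± 71.7 FPKM in OE libraries and 675 ± 17.5 and 1123 ± 56.8 FPKM in control libraries, and neither was called. Of the 8 proteins of the exit tunnel and its rim 0 were called, and 7 had a positive log2 fold change with a median over the 8 of 0.06. RPL39, which lines the tunnel, had 2165, 2313 and 2120 FPKM in OE libraries, against 2105, 2044 and 2104 FPKM in control libraries. The groups did not overlap, with a gap far smaller than the spread of the OE libraries, and the log2 fold change was 0.08 (adjusted p = 0.594 by limma). RPL4, RPL19, RPL26, RPL31 and RPL35, the other tunnel and rim proteins besides RPL17 and RPL23A, had log2 fold changes between 0.03 and 0.09, and each overlapped between the groups. Of 5 proteins along the mRNA channel of the small subunit and 9 of its head 0 were called, with medians of -0.005 and 0.02.

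The paralogs were the members that left the common pattern most often. Only 2 of the 5 tested were highest in OE replicate 2, RPS27L and RPL22L1, against all 76 members that are no paralogs, and the difference was not tested. RPL39L, a form known from testis and some tumours, had 84.1, 70.5 and 66.1 FPKM in OE libraries, against 73.4, 89.8 and 97.3 FPKM in control libraries. The groups overlapped through OE replicate 1 and control replicate 1, and the log2 fold change was -0.23 ± 0.11 (SE, adjusted p = 0.429 by limma). RPL26L1 had 44.1, 39.1 and 40.3 FPKM in OE libraries, against 42.7, 46.1 and 45.1 FPKM in control libraries, again with overlap and with a log2 fold change of -0.12 (adjusted p = 0.484 by limma). Their parents RPL39 and RPL26 had positive log2 fold changes of 0.08 and 0.09. RPS27L, a p53 target, had 71.7, 92.3 and 75.0 FPKM in OE libraries, against 72.4, 69.3 and 70.9 FPKM in control libraries. OE replicate 2 alone stood well above the rest, and the log2 fold change was 0.16 (adjusted p = 0.496 by limma). RPL7L1, a nucleolar protein related to RPL7, had 65.3, 65.0 and 62.0 FPKM in OE libraries, against 59.6, 62.2 and 59.0 FPKM in control libraries, with a log2 fold change of 0.09 (adjusted p = 0.511 by limma). OE replicate 3 lay just under control replicate 2. RPL22L1 had 150.5, 151.0 and 149.2 FPKM in OE libraries, against 138.4, 140.8 and 148.9 FPKM in control libraries, and the groups were apart by less than 1 FPKM.

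Each paralog was also set against its parent. RPL22L1 stood at 49.3 ± 3.87% of RPL22 in OE libraries and 51.1 ± 3.07% in control libraries, the highest share of any paralog. RPL7L1 stood at 10.7%, 9.13% and 10.1% of RPL7 in OE libraries and at 9.58%, 10.4% and 9.47% in control libraries. The other shares were small: RPL26L1 held 2.60 ± 0.282% of RPL26 in OE libraries and 2.99 ± 0.217% in control libraries, and RPL39L 3.35 ± 0.463% of RPL39 in OE libraries and 4.17 ± 0.602% in control libraries. RPS27L held 3.12%, 3.63% and 3.19% of RPS27 in OE libraries and 2.96%, 2.87% and 3.07% in control libraries. That was the one share without overlap between the groups, by a gap smaller than the spread of the OE libraries, and an exact permutation test of 3 against 3 libraries cannot give a p under 0.1.

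**Figure D5:**
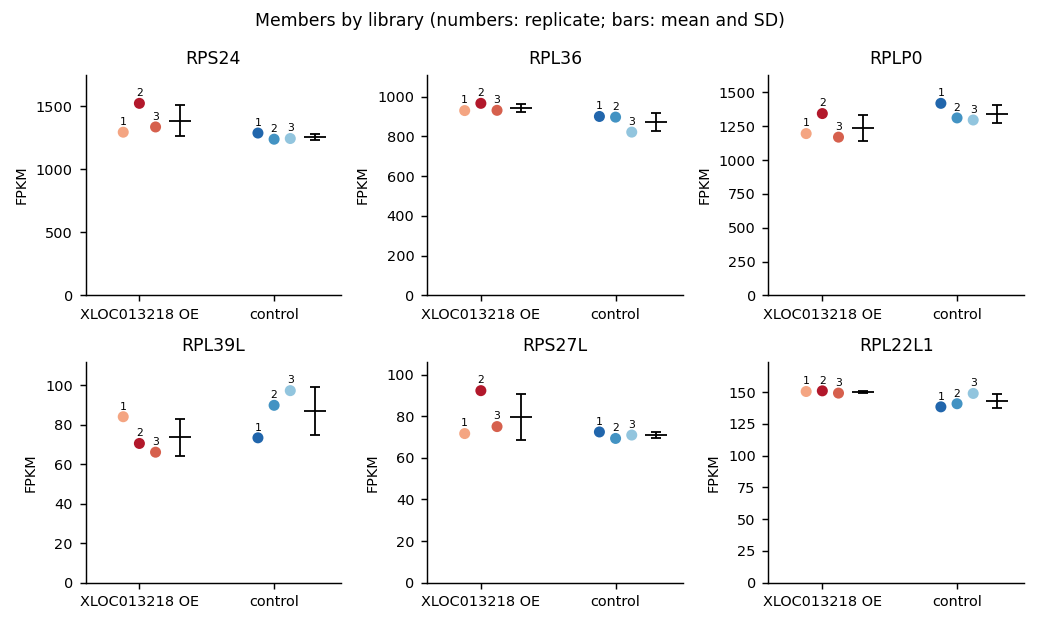
FPKM per library of RPS24, RPL36, RPLP0, RPL39L, RPS27L and RPL22L1, XLOC013218 OE libraries left and control libraries right in each panel, numbered by replicate, with the mean and SD beside the points. RPL36, RPS24 and RPL22L1 are the panels without overlap between the groups, and in RPS27L OE replicate 2 sits at 92.3 FPKM, above the other 5 libraries.

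Genes that act on ribosomal proteins or answer to them were listed too, and 0 were called by limma in any of these lists. At an unadjusted p under 0.05 there were 1 of 13 regulators of 5′ TOP mRNAs, 1 of 12 chaperones and importers and 0 of 16 other 5′ TOP mRNAs. Over all genes tested the share was 12.7%. Of 13 regulators of 5′ TOP mRNAs, 9 had a positive log2 fold change, with a median of 0.04. Without overlap, 3 of them were higher and 1 lower in OE libraries, against 8.81% and 10.1% of all genes tested. MYC, which drives transcription of ribosome genes, had 45.2, 37.0 and 38.0 FPKM in OE libraries, against 32.6, 32.7 and 30.3 FPKM in control libraries. The groups did not overlap, and the log2 fold change was 0.32 ± 0.08 (SE, adjusted p = 0.140 by limma). EIF4EBP2, a repressor of cap-dependent translation under mTOR, was lower in OE libraries without overlap. It lay between 17.1 and 19.0 FPKM in OE libraries and between 19.3 and 20.8 FPKM in control libraries (log2 fold change -0.13, adjusted p = 0.470 by limma). LARP1 averaged 113 ± 3.81 FPKM in OE libraries and 107 ± 1.48 FPKM in control libraries. EIF4EBP1 averaged 108 ± 3.65 FPKM in OE libraries and 101 ± 3.54 FPKM in control libraries. Both were higher in OE libraries without overlap (adjusted p = 0.495 and 0.517 by limma). Of 12 chaperones and importers of ribosomal proteins the lowest p belonged to LTV1, which helps mature the small subunit, with 17.8 to 19.7 FPKM in OE libraries and 16.9 to 17.1 FPKM in control libraries (log2 fold change 0.15, adjusted p = 0.391 by limma). IPO5, an importer, averaged 85.7 ± 3.44 FPKM in OE libraries and 81.8 ± 2.16 FPKM in control libraries. Among the other 5′ TOP mRNAs, EIF3E averaged 114 ± 6.23 FPKM in OE libraries and 104 ± 7.43 FPKM in control libraries. NPM1, a nucleolar chaperone, averaged 1843 ± 105 FPKM in OE libraries and 1697 ± 89.3 FPKM in control libraries.

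Of 8 genes of nucleolar stress and the p53 response 0 were called, and 4 had an unadjusted p under 0.05, where 12.7% of all genes tested did. GDF15, a secreted stress factor and p53 target, had 146, 122 and 176 FPKM in OE libraries, against 101, 99.6 and 95.8 FPKM in control libraries. The groups were well apart, and the log2 fold change was 0.57 ± 0.11 (SE, adjusted p = 0.065 by limma). SESN2, a stress-induced inhibitor of mTOR signalling, averaged 9.22 ± 1.28 FPKM in OE libraries and 7.35 ± 0.291 FPKM in control libraries (log2 fold change 0.28, adjusted p = 0.298 by limma). FAU, the ribosome constituent outside the rule named above, averaged 444 ± 21.4 FPKM in OE libraries and 407 ± 45.9 FPKM in control libraries.

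The libraries carried the markers of their label only in part. VIM averaged 3581 FPKM in OE libraries and 3840 FPKM in control libraries, and CD44, NES, SOX2, SOX9, EGFR, FABP7 and GFAP were all present. GFAP averaged 21.6 FPKM in OE libraries and 41.6 FPKM in control libraries (log2 fold change -0.96, adjusted p = 0.107 by limma). GFAP, SOX2 and EGFR were lower in OE libraries without overlap, 3 of 8 tested glioma and astrocytic markers, against 10.1% of all genes tested. Of these 8 markers 0 were called. S100B and CHI3L1 stayed under 1 FPKM. The listed markers of endothelial, oligodendrocyte and epithelial cells were each under 1 FPKM, and CD3E was listed at 0. Of 5 neuronal markers, which summed to between 15.8 and 18.6 FPKM in OE libraries and between 15 and 18.3 FPKM in control libraries, SYT1, GAD1 and SNAP25 were each above 1 FPKM in every library. The 7 immune markers summed to between 11.5 and 13.2 FPKM in OE libraries and between 7.96 and 9.26 FPKM in control libraries, mostly CD68. The level of XLOC013218 itself, the overexpressed RNA, was not analysed here. Summed FPKM over all Ensembl genes was between 614027 and 621922 in OE libraries and between 598683 and 620473 in control libraries.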

How the data were processed

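RNA of 6 U251 libraries was sequenced, and the authors deposited 1 table of gene-level FPKM per library, rounded to 2 decimals; the unit is given per the file headers and names. Per the labels' protocols the RNA was extracted with Trizol, treated with DNase and selected for poly(A) for a stranded kit, while the series' design text speaks of cytoplasmic RNA without such selection, and the contradiction was not resolved. Per the submitters' processing notes, the tools were Cufflinks 2.2.1, RSEM 1.3.1, edgeR, TopHat and Bowtie and the build hg18, with no role or order given. Depth in reads is unknown, so no count test was run. The last line was cut short in 5 tables, in the part after the 20330 Ensembl genes, and was left out.

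Symbols came from a table that matched 19447 identifiers. Chromosome, gene type, coding length and GC came from GENCODE 29, and promoter sequences from RefSeq on GRCh38.p14; no coordinates of hg18 are printed. The 11731 genes present in every table that averaged 1 FPKM or more were compared with limma 3.58.1 (limma-trend) in R 4.3.3 on log2(FPKM + 1) without further scaling, with the group as the only term, two-sided, and Benjamini-Hochberg adjustment over all of them at a threshold of 0.05. This scale understates changes of low genes. Summaries used Python 3.11.15 with pandas 2.3.3, and the scripts were tested on simulated data. Libraries were not duplicates of each other, since a pair shared at most 1.86% identical values.

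The members and lists were chosen with earlier results of these data known, so no p was adjusted over a list and no set test was made. Named are the 5 highest and 5 lowest members, the 10 with the lowest p, the paralogs with their parents, the stalk, 5S and tunnel proteins, and the 2 genes with the lowest p of each outside list. LARP1 and EIF4EBP1 were added after their values were seen. Some genes are not reported here, and figures of single genes show 80 of the 81 tested members. No pairing of the libraries by replicate number was seen, and the main model used none. Alternatives changed the pseudocount, the filter, the scaling, the model, the weights and the libraries included.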

Additional observations from a re-analysis of the deposited data

How the results depend on the processing

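In all 14 other settings 0 members were called, and the lowest adjusted p of a named member in any of them was 0.0539, by limma for RPS27 under quantile normalization. The count over all genes tested was less stable: 61 genes were called, against 22 with no filter, 1 without a trend, 197 with array quality weights, 19 with a replicate block, 18 with each library scaled to the members' median (chosen after seeing the data; 17 of them were among the 61) and 1 to 60 with 1 library left out. The split was 37 higher and 24 lower, against 30 and 31 after rescaling to TPM. The cause of these moves was not tested. Same-numbered libraries had deviations correlated at -0.04, -0.06 and 0.04, and not every library correlated best with its own number. These values showed no pairing by number, though they cannot exclude it.

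Log2 fold changes near 0 turned sign for some named members and stayed past no threshold. Under quantile normalization they were -0.049 for RPL10, -0.026 for RPL11, -0.028 for RPL31, -0.044 for RPL39, -0.077 for RPL8, -0.011 for RPLP2, 0.037 for RPS2 and -0.17 for RPS27. RPS27 was -0.013 on TPM. With array weights RPL8, RPS10 and RPS27 were at -0.0057, -0.0082 and -0.0088, and scaled to the members' median RPL4, RPL8, RPS10 and RPS27 were at -0.0044, -0.021, -0.011 and -0.033. The other 232 values of these settings kept their sign. With 1 library left out, the range was -0.044 to 0.027 for RPL12, -0.047 to 0.022 for RPL5, -0.012 to 0.075 for RPL11, -0.035 to 0.064 for RPL4, -0.0077 to 0.11 for RPL7, -0.033 to 0.059 for RPL8, -0.017 to 0.074 for RPS10, -0.041 to 0.032 for RPS27, -0.071 to 0.025 for RPLP1, -0.066 to 0.024 for RPS2 and -0.065 to 0.014 for RPL3. The members' median ranged from -0.01 to 0.06 and the summed difference from -771 to 4200 FPKM. Members with an unadjusted p under 0.05 numbered at most 9, under quantile normalization. A group left with 2 libraries is assumed to vary like the others. Without read totals, counting error at low FPKM cannot be given.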

Other observations

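A list of 18 members mutated in Diamond-Blackfan anaemia, an inherited failure of red cell production, was also read, and it may not be complete. It included 0 called genes, with a median log2 fold change of 0.02. All 18 were highest in OE replicate 2 among the OE libraries, where 32.3% of all genes tested were. Of these 18, RPS24 was the gene without overlap between the groups.

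The mitochondrial ribosomal proteins, nuclear genes for the ribosome that translates the mitochondrial genome, had a median of 49.7 FPKM over 76 genes. Of them 0 were called by limma (lowest adjusted p = 0.099), and 11 had an unadjusted p under 0.05, where 12.7% of all genes tested did. The log2 fold change was positive in 63, where 49.7% of all genes tested were positive, and 12 were higher in OE libraries without overlap, where 8.81% of all genes tested were. Their shift was 0.02, 0.07 and 0.008 in OE replicates 1 to 3 and 0.01, -0.02 and -0.08 in control replicates 1 to 3. Control replicate 3 was the lowest control library in 45 of the 76, against 37% of all genes tested. The part of single libraries in these counts was not tested.

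Readthrough loci, annotated as genes that join a member to its neighbour, were listed for RPL17, RPS10 and RPL36A. RPL17-C18orf32 had 2.13, 2.26 and 1.20 FPKM in OE libraries, against 0.97, 0.75 and 0.64 FPKM in control libraries (log2 fold change 0.66, adjusted p = 0.157 by limma). RPS10-NUDT3 averaged 7.29 ± 0.560 FPKM in OE libraries and 7.32 ± 1.07 FPKM in control libraries (SD, n = 3 each). RPL36A-HNRNPH2 averaged 2.73 FPKM in OE libraries and 2.72 FPKM in control libraries. These loci share exons with the members, so their reads cannot be told apart with certainty.

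Of the 83 members, 12 lie on chromosome 19, more than on any other. Spearman's rho between the coding length and the mean FPKM was -0.01 over 81 members, against -0.20 over 11444 genes tested, a description with no p.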
